A study of Homo sapiens with 4 samples.

Results

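The genes POU5F1, SOX2, NANOG, MYC, KLF4 and LIN28B, which are known for their part in stem cell identity, were set against ChIP-seq peaks of ARID3B and KDM4C in OECM1 cells, a head and neck cancer cell line. All 6 genes were chosen by name, with their spans on the build GRCh37, and each was compared with every peak of 4 deposited lists, which together form 9138 regions. The 4 groups had 1 library each: cells with a Cas9 control construct (control cells) and cells with Cas9 directed at ARID3B (edited cells), each precipitated with either an ARID3B or a KDM4C antibody. The sample titles call the edited cells a knockdown and the series title a knockout. Whether the edited cells were a clone or a pool is not given in the sources used here, and the ARID3B left in them was not measured here. A peak list holds no expression values, so the cell type was not checked against markers.

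ARID3B belongs to a family of DNA-binding proteins that prefer AT-rich sequence, and KDM4C is a histone demethylase that removes methyl groups from lysine 9 of histone H3, a mark of repressed chromatin. POU5F1 (OCT4), SOX2 and NANOG are transcription factors of the pluripotency network, KLF4 and MYC are factors used with them in reprogramming, and LIN28B is an RNA-binding protein that blocks maturation of let-7 microRNAs. The study's paper is known for the claim that ARID3B and KDM4C act at promoters of stemness genes, which is the question these lists were read for. The paper was not among the sources used here, so any other evidence it gives was not examined.

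Promoter sequence is shown for the gene whose span held the ARID3B peak nearest to a transcription start (SOX2) and for the only gene with a match to the letters ATTAA among the 4 whose promoters could be searched (NANOG). These are the 250 bases before the start from RefSeq on GRCh38.p14, read 5′ to 3′ on the plus strand, and ATTAA, a core that ARID3 proteins are known to prefer, was searched on both strands and is in capitals. The match in NANOG begins 82 bases before the start.

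SOX2: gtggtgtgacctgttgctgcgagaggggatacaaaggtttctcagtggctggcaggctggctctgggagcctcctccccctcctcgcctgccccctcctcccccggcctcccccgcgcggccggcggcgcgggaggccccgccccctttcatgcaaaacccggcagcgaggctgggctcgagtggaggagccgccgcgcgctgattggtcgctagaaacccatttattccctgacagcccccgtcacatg

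NANOG: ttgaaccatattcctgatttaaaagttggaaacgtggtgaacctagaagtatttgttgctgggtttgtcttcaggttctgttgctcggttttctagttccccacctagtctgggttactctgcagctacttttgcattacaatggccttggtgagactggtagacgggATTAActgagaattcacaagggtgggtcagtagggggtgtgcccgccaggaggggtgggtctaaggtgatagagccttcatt

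RefSeq promoters were matched for 4 of the 6 genes, as 5 sequences, since LIN28B has 2 starts that lie 16.1 kb apart. The letters ATTAA occurred in 1 of the 5, and in 22.7% of all 35116 promoters of this length. The NANOG sequence was 52.4% A or T and the SOX2 sequence 31.2%, against a median of 42% over all promoters. KLF4 had 30.8%, and the LIN28B starts had 26.4% and 61.6%. A match is a description of letters and not a binding site. No deposited peak of any library lay over the 250 bases before the annotated start of any of the 6 genes on GRCh37, where the nearest peak summit was 1.06 kb away, inside SOX2.

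Within 10 kb of the 6 gene spans the control libraries had no peak, with either antibody. The edited ARID3B library had 2, inside POU5F1 and inside SOX2, and the edited KDM4C library had 1, inside MYC. So 0 of 6 genes had an ARID3B peak within 10 kb in control cells and 2 of 6 in edited cells, and for KDM4C it was 0 of 6 and 1 of 6. When the genome was divided into tiles of 20 kb, 1.90% of the tiles held a control ARID3B peak, 2.80% an edited ARID3B peak, 0.775% a control KDM4C peak and 1.07% an edited KDM4C peak. Each gene window is wider than such a tile by the gene span, 126 kb for LIN28B and 2.51 to 6.66 kb for the others. Tile shares are therefore low for a gene window, most of all for LIN28B. None of the 3 peaks overlapped a peak of another library, and no gene had peaks of both antibodies within 10 kb.

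Within 100 kb the edited ARID3B library had 3 peaks, near 3 of the 6 genes, because 1 upstream of KLF4 was added, and the edited KDM4C library still had 1. Both control libraries again had 0. Tiles of 200 kb held a peak in 14.8% of cases for control ARID3B, 20.9% for edited ARID3B, 6.04% for control KDM4C and 8.63% for edited KDM4C. Within 1 Mb there were 15 control and 32 edited ARID3B peaks, near 4 and all 6 of the genes, and 10 control and 17 edited KDM4C peaks, near 3 and 4 of them. The shares of 2 Mb tiles with a peak were 66.4%, 76.4%, 40.1% and 50.3% in the order control ARID3B, edited ARID3B, control KDM4C and edited KDM4C. With 1 library per group no test between control and edited cells is possible, and intervals cover counting error only.

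**Figure D1:**
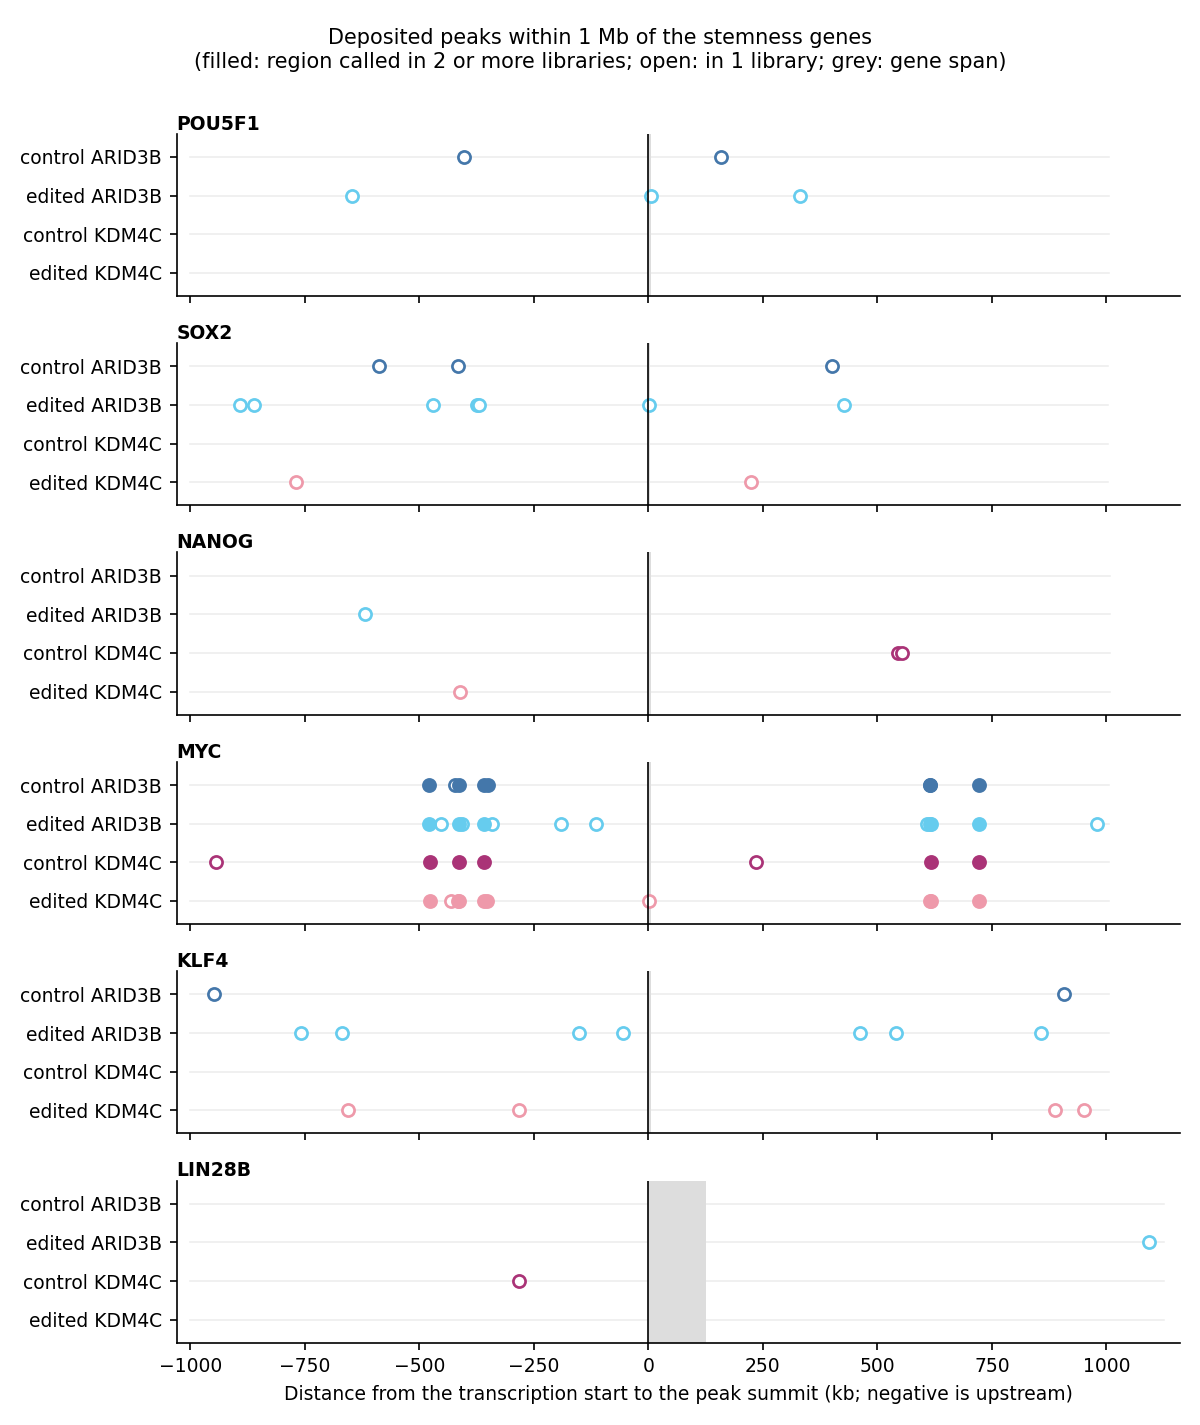
Position of each deposited peak within 1 Mb of the 6 genes, as the distance in kb from the transcription start to the peak summit along the gene's strand, with 1 line per library. Filled points (regions called in 2 or more libraries) occur only around MYC, and the spans of POU5F1, SOX2 and MYC hold 1 open point each.

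The libraries held 16209985 to 24439463 tags after the caller removed repeated positions, and 1494 to 4834 peaks. Peaks were called in each library without a control library. The caller's fragment length was 79 to 95 bp, close to the tag length of 72 to 75 bp. How far the peaks reflect enrichment by the antibody was not tested. The median peak had 12 or 14 tags and the smallest 9 or 10. At the genome's mean background a stretch of 250 bp, the length of the promoters above, needed at least 11 tags in the control ARID3B library to pass the threshold, 10 in the edited ARID3B, 10 in the control KDM4C and 9 in the edited KDM4C library. These are 4.86, 5.17, 5.23 and 6.0 times the tags expected there. Slightly longer stretches pass at a lower density. Much weaker enrichment at a promoter with mean background was not detectable at this depth. At the median background of the long peaks around MYC, described below, 2.11 to 2.51 times the tags expected there would pass. The absence of a peak does not show that a protein was absent.

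POU5F1 encodes OCT4, and its span lies on chromosome 6 from 31132119 to 31138451 on the minus strand. The edited ARID3B library had a peak inside it, from 31132543 to 31132660, with 10 tags, a fold enrichment of 11.4 over the caller's local background and a score of 82.33. The score is the p-value of the caller on a scale of minus 10 times log10, on which the threshold of the lists is 50, and 86.1% of the peaks of that library scored lower. Its summit lay 5.85 kb downstream of the start, near the 3′ end of the gene and away from the promoter. At 118 bp it was the shortest of the 74 peaks within 1 Mb of any of the genes. Exon positions on GRCh37 were not used here.

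Elsewhere around POU5F1 the lists were thin. The nearest control ARID3B peak lay 152 kb downstream (11 tags, fold enrichment 7.56, score 53.48), and another, with the highest score of that library in the window (56.80), lay 402 kb upstream. The nearest KDM4C peaks were 1174 kb upstream in control cells (11 tags, fold 9.96) and 1419 kb upstream in edited cells (11 tags, fold 14.03), so KDM4C had no peak within 1 Mb in either. Other edited ARID3B peaks lay 325 kb downstream and 647 kb upstream, with 12 and 15 tags. All 5 peaks of the window were called in 1 library. POU5F1 has near-identical pseudogene copies in the genome, so tags from its coding part can be hard to place.

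SOX2, a single-exon gene on the plus strand of chromosome 3 from 181429711 to 181432224, also held an edited ARID3B peak. It ran from 181430628 to 181430879, within the exon, with 11 tags, a fold enrichment of 9.49 and a score of 58.3, and its summit lay 1.06 kb downstream of the start. About 6 tags overlapped at the summit (5.997, recovered from the deposited values). In that list 55.6% of the peaks scored lower, so it was an ordinary peak near the threshold.

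The control ARID3B library had no peak at that place, and its nearest was 398 kb downstream (15 tags, fold 7.05, score 56.99). The 11 tags have an exact 95% Poisson interval of 5.49 to 19.7. Scaled to the depth of the control ARID3B library they would be 12.9 tags, and 11 were needed there to pass at the same background. For the 10 tags inside POU5F1 (4.80 to 18.4) the scaled value was 11.7, and 9 were needed at the genome's mean background, which was used because the peak's own could not be recovered. Both intervals reach below the number of tags needed, so peaks of this size lie within counting error of the threshold. The POU5F1 peak scored higher (82.33) than its tags would at the mean background, so the 9 needed there is a rough figure. Whether either library differed there beyond such error was not tested.

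Around SOX2 the edited ARID3B library had 7 peaks within 1 Mb and the control library 3, with exact 95% intervals of 2.81 to 14.4 and 0.619 to 8.77. At the rate of the rest of chromosome 3 the window would hold 2.33 edited and 1.68 control ARID3B peaks. The edited value is below the interval of its count, and 11.5% of 2 Mb tiles held at least 7 peaks of that library. With every gene and library read in this way, single windows can fall outside such an interval by counting error alone. Over the 5 genes without MYC the libraries had 7, 19, 3 and 7 peaks, and their chromosomes' rates gave 10.7, 16.5, 4.15 and 6.09. The order is control ARID3B, edited ARID3B, control KDM4C and edited KDM4C, and each rate value lay within the interval of its count. In the SOX2 window the highest score of the edited ARID3B library (63.35) belonged to a peak 471 kb upstream. KDM4C had no peak in control cells, where the nearest was 1109 kb upstream (10 tags, fold 8.71), and 2 in edited cells, at 222 kb downstream (10 tags, fold 9.29) and 769 kb upstream (9 tags, fold 10.52). The 12 peaks of the window were all called in 1 library only.

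NANOG, a homeobox factor on the plus strand of chromosome 12 from 7941995 to 7948657, had no peak within 100 kb in any library. The nearest ARID3B peak was 1903 kb upstream in control cells (30 tags, fold 6.53, score 85.49) and 619 kb upstream in edited cells (9 tags, fold 9.82, score 51.45). KDM4C peaks lay 539 kb downstream in control cells (11 tags, fold 13.7, score 71.81), with another at 547 kb (13 tags), and 410 kb upstream in edited cells (11 tags, fold 10.52, score 58.8). None of these positions recurred between libraries. NANOG also has pseudogene copies that resemble it closely.

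KLF4, a zinc finger factor on the minus strand of chromosome 9 from 110247133 to 110252047, had no peak within 10 kb. The nearest was in the edited ARID3B library, 54.4 kb upstream, from 110306470 to 110306671, with 13 tags, a fold enrichment of 9.21 and a score of 69.82. In control cells the nearest ARID3B peak was 902 kb downstream (19 tags, fold 6.73). The nearest KDM4C peaks lay 282 kb upstream in edited cells (13 tags, fold 7.43) and 1587 kb upstream in control cells (10 tags, fold 7.72).

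In the 1 Mb window of KLF4 ARID3B had 2 control and 7 edited peaks, and KDM4C had 0 and 4. The chromosome as a whole moved the same way, with 227 control and 450 edited ARID3B peaks, a ratio of 1.98 (exact 95% interval 1.69 to 2.34), and 106 and 158 KDM4C peaks (1.49, 1.16 to 1.92). At the rate of the rest of chromosome 9 the window would hold 3.24, 6.38, 1.53 and 2.22 peaks in the order control ARID3B, edited ARID3B, control KDM4C and edited KDM4C. The 7 edited ARID3B peaks were thus close to the level of their chromosome. The highest score among them (89.94, fold 15.47) was 536 kb downstream, and all 13 peaks of the window were called in 1 library.

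LIN28B, with the longest span of the 6 genes (126 kb on the plus strand of chromosome 6, from 105404923 to 105531207), had the fewest peaks. Within 1 Mb it had 1 edited ARID3B peak, 966 kb downstream (13 tags, fold 13.1, score 60.93), and 1 control KDM4C peak, 283 kb upstream (12 tags, fold 9.15, score 59.4). The nearest peaks of the other libraries were far off, at 3876 kb for control ARID3B (11 tags) and 3815 kb for edited KDM4C (10 tags), both downstream. At the rate of the rest of the chromosome the window would hold 2.20 control ARID3B and 2.93 edited ARID3B peaks, and counts of 0 and 1 have intervals that reach 3.69 and 5.57.

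**Figure D2:**
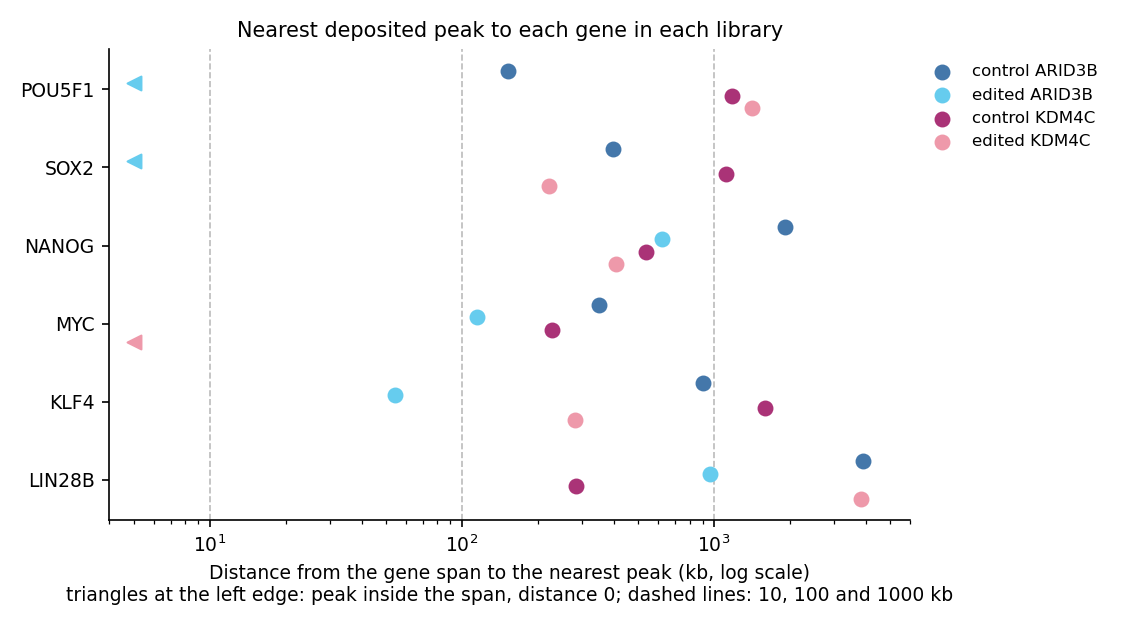
Distance in kb (log axis) from each gene span to the nearest peak of each library, with triangles for a peak inside the span. The triangles belong to edited libraries only, and the nearest control peak of any gene was 152 kb away.

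Over the 6 genes the median distance to the nearest peak was 650 kb for control ARID3B, 84.5 kb for edited ARID3B, 824 kb for control KDM4C and 346 kb for edited KDM4C. The lists differ in length, and a longer list brings its nearest peak closer. With the 1494 highest scores of each list the medians were 1645 kb for control ARID3B and 414 kb for edited ARID3B. Of the 24 nearest peaks, 23 were called in 1 library, with the control ARID3B peak near MYC as the exception. Of the same 24, 16 scored under 60 and 0 reached a score of 100. In the whole lists of control ARID3B, edited ARID3B, control KDM4C and edited KDM4C, 72.0%, 78.5%, 51.1% and 60.5% of peaks were called in 1 library. Scores under 60 made up 57.0%, 61.1%, 50.7% and 57.1% of the same lists. Among the 20 nearest peaks of genes other than MYC, the tags ranged from 9 to 30.

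MYC, a transcription factor that drives growth and proliferation genes, had more peaks within 1 Mb than each of the other genes in every library. Its span lies on chromosome 8 from 128748315 to 128753680 on the plus strand. Within 1 Mb it had 8 control and 13 edited ARID3B peaks and 7 control and 10 edited KDM4C peaks, with exact 95% intervals of 3.45 to 15.8, 6.92 to 22.2, 2.81 to 14.4 and 4.80 to 18.4. At the rate of the rest of the chromosome there would be 1.96, 2.61, 1.0 and 1.18, each below its interval. These intervals treat peaks as independent, which was not always so. The region 608 kb downstream held 2 peaks each in control ARID3B, edited ARID3B and edited KDM4C. The intervals are therefore too narrow for such clustered peaks. Among 1558 tiles of 2 Mb, 4.24%, 3.34%, 2.44% and 1.80% held at least as many peaks of the respective library, so such a density was uncommon but not unique to this window.

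**Figure D3:**
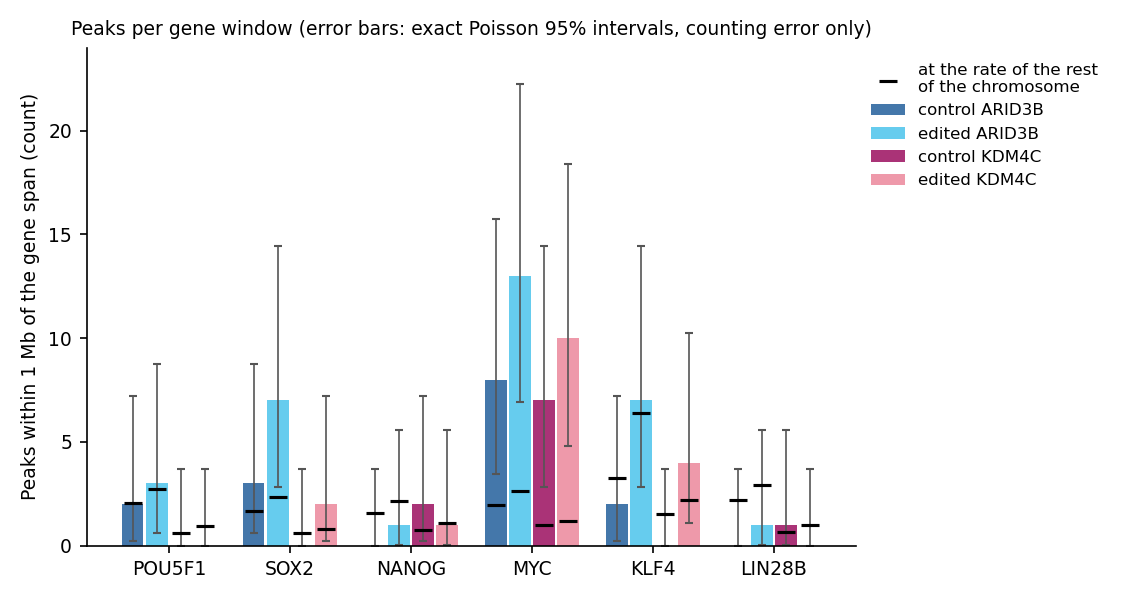
Number of deposited peaks within 1 Mb of each gene span per library, with exact 95% Poisson intervals for counting error and a black dash for the number expected at the rate of the rest of the chromosome. In each library MYC had the most peaks, with 7 to 13, and the other genes had 0 to 7.

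The peak inside MYC came from edited cells with the KDM4C antibody and no other library, and ran from 128750140 to 128751788, with 133 tags, a fold enrichment of 4.30 and a score of 53.42. Its summit lay 2.36 kb downstream of the start. The local background recovered from the deposited score was 8.96 times the genome mean, and at that background 132 tags were the fewest that pass, so the peak sat at the threshold. The interval of its 133 tags, 111 to 158, includes values that would not have been called. The nearest peaks of the other libraries were 114.5 kb upstream for edited ARID3B (289 tags, fold 2.82), 229 kb downstream for control KDM4C (412 tags, fold 3.13) and 349 kb upstream for control ARID3B (481 tags, fold 3.31).

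Around MYC most peaks were long, dense in tags and low in fold enrichment. Of its 38 peaks, 32 were at least 900 bp long, with 72 to 750 tags and fold enrichments of 2.82 to 5.65, and the limit of 900 bp was chosen after the values were seen. They held 58.2 to 231 tags per kb, where the genome mean was 6.0 to 9.05 tags per kb in the 4 libraries. Their recovered local background was 5.04 to 18.2 times the genome mean, against 1.0 to 1.93 times at the 35 of 36 peaks near the other genes for which it could be recovered. The medians at the long MYC peaks were 8.40, 8.23, 9.29 and 7.45 times the mean in control ARID3B, edited ARID3B, control KDM4C and edited KDM4C, and 4.12%, 4.09%, 7.51% and 7.90% of the peaks of these lists had a background as high. The caller used no control library, so the local background came from the same library. The caller's range of 10 kb can hold a peak's own tags. Part of the background at long peaks with many tags can therefore be those tags, and how much was not measured. Fold enrichment is a ratio to this background and so not independent of it. The raised background was present with both antibodies and in both kinds of cells, and its cause was not tested.

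**Figure D4:**
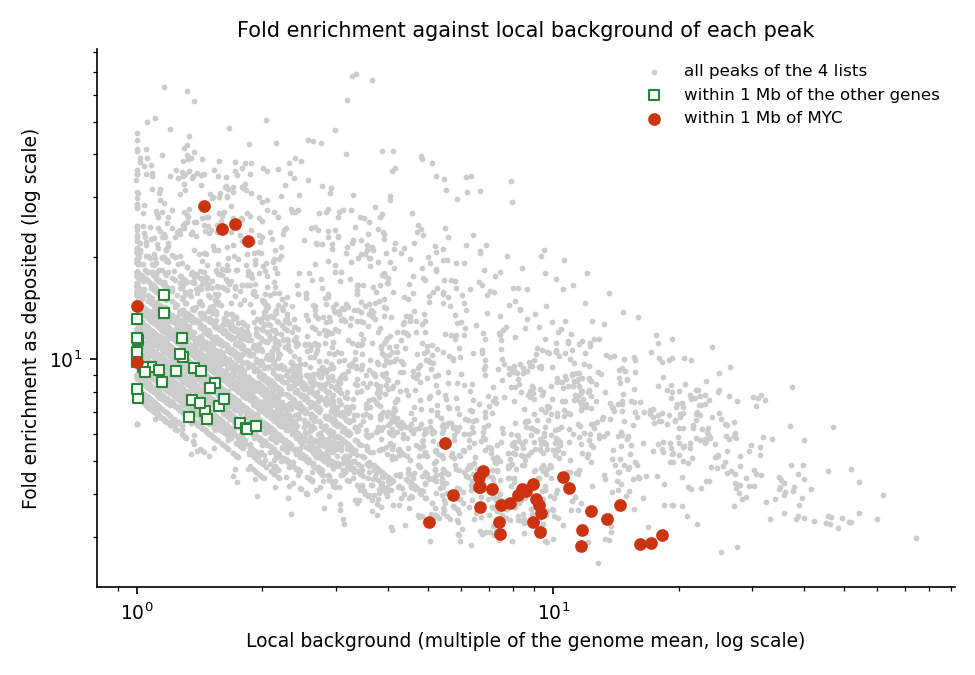
Fold enrichment as deposited against the local background recovered for each peak, as a multiple of the genome mean, both on log axes, for all peaks (grey), peaks within 1 Mb of MYC (filled) and of the other genes (open squares). The open squares lie between 1.0 and 1.93 times the mean, and 32 MYC peaks lie at 5.04 times or more with fold enrichments below 6. Fold enrichment is itself a ratio to the local background, so the axes are not independent.

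Regions around MYC recurred between libraries, which no region near the other genes did. Of all 9138 regions of the 4 lists, 8052 (88.1%) were called in 1 library, so a region called once was the usual case. The 38 peaks near MYC formed 18 regions, 5 of them called in all 4 libraries, 1 in 2 and 12 in 1. The region with the highest scores lay 608 kb downstream, from 129361689 to 129366557, where the highest score was 307.83 in control ARID3B, 220.58 in edited ARID3B, 399.61 in control KDM4C and 267.11 in edited KDM4C. Upstream, the region from 128268847 to 128273117, 475 kb from the gene, had 418, 239, 412 and 196 tags in the same order, and those 412 and 356 kb from the gene were also called in all 4. The fifth, from 129470395 to 129470853, 717 kb downstream, was of another kind, with 26 to 35 tags and fold enrichments of 22.3, 28.3, 24.9 and 24.1. These regions were called with and without Cas9 directed at ARID3B and with either antibody.

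Near the other 5 genes, all 36 peaks were called in 1 library: 7 control ARID3B, 19 edited ARID3B, 3 control KDM4C and 7 edited KDM4C peaks. None reached a score of 100, and 23 of the 36 scored under 60. Among all peaks of the lists that scored under 100, 81.5%, 86.7%, 66.1% and 72.7% were called in 1 library, so most peaks of this strength were called once across the genome as well. No position within 1 Mb of POU5F1, SOX2, NANOG, KLF4 or LIN28B was thus called with ARID3B and with KDM4C, in control or in edited cells.

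Set side by side, the edited to control ratio of ARID3B peaks in the 6 windows was 2.13 (32 against 15, exact 95% interval 1.12 to 4.24), and in the whole list it was 1.48 (1.42 to 1.55). For KDM4C the ratios were 1.70 (17 against 10, 0.735 to 4.15) and 1.27 (1.18 to 1.36). Without MYC the counts were 19 against 7 for ARID3B (2.71, 1.09 to 7.64) and 7 against 3 for KDM4C (2.33, 0.533 to 13.98). Each interval of the windows includes the ratio of its whole list.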

How the data were processed

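Peak lists of 4 ChIP-seq libraries of OECM1 cells were used and were grouped by sample title. The members and lists were chosen with earlier results of these data known. Per the file headers, MACS 1.4.2 called the peaks of each library on its own, without a control library, at a p-value threshold of 1e-05, with 1 tag kept per position and a local background range of 10 kb. Per the submitters' processing notes, bcl2fastq 2.1.5 and BWA 0.7.12 were used, with GRCh37 as the build. The deposited tag counts are whole tags per peak, not normalized. The deposited score is the p-value on a scale of minus 10 times log10, and the deposited fold enrichment is a ratio to the local background; both are the authors' values for each peak. The 4 libraries had no replicates, so no test was run.

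Distance was taken from the gene span to the nearest edge of a peak. The spans were given with the gene names, and strands were checked against RefSeq for the 4 genes it matched. Every nearest peak, every peak within 100 kb, the highest score within 1 Mb and regions called in more than 1 library could be named. A peak was called in another library when merged regions (overlap of at least 1 bp) held a peak of it. Tiles ran to the last peak of each chromosome and included gaps in the assembly. Local background was found by solving the Poisson probability of each tag count and score for the expected tags, and the caller's window can hold the peak's own tags. Recovery succeeded for 98.0% to 98.9% of each list. Distance and background steps were tested on simulated data. The simulated scores were made with the same formula and window that were then solved. That test therefore checks the arithmetic, and it cannot show that the caller used this window. Python 3.11.15, scipy 1.17.1 and pandas 2.3.3 were used. Alternatives were distances from the start to the summit, higher scores, lists of equal length, lists without regions of all 4 libraries and a stricter overlap.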

Additional observations from a re-analysis of the deposited data

Results flagged for a closer look

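For NANOG and LIN28B the number of peaks within 1 Mb moved in opposite directions with the 2 antibodies. For NANOG, edited less control cells was 1 for ARID3B (0 peaks to 1) and -1 for KDM4C (2 to 1). For LIN28B it was 1 for ARID3B (0 to 1) and -1 for KDM4C (1 to 0). Each rests on single peaks in 1 library per group, and whether the antibodies differ was not tested.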

How the results depend on the processing

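Of 96 recomputed values, 60 lay within 1.5 times the value reported and 36 did not. Some of the 60 could not have moved. The control libraries had 0 peaks within 10 kb and 100 kb, and no alternative can add peaks there. The control KDM4C list was itself the list of 1494 peaks, so equal length left it as it was. In the order control ARID3B, edited ARID3B, control KDM4C and edited KDM4C, a score of at least 100 left 4, 5, 3 and 4 peaks within 1 Mb, and 0 within 10 kb and 100 kb, with median nearest distances of 9802, 9802, 14610 and 14610 kb. At a score of at least 60, control and edited ARID3B had 9 and 16 peaks within 1 Mb and edited KDM4C had 6. Within 10 kb that score left the edited ARID3B peak inside POU5F1 (1) and none for edited KDM4C, which had 0 within 100 kb too. Median nearest distances were then 1645, 366, 5982 and 2722 kb. Of the edited KDM4C peaks within 1 Mb, 5 of 6 were then called in another library, where 8 of 17 had been. With the 1494 highest scores of each list, control and edited ARID3B had 9 and 14 peaks within 1 Mb, edited ARID3B had 1 within 10 kb, and their median nearest distances were 1645 and 414 kb. Without regions called in all 4 libraries, control ARID3B had 9 peaks within 1 Mb, control KDM4C 5 and edited KDM4C 10. Without the MYC window, chosen after seeing the data, the 4 libraries had 7, 19, 3 and 7, and the edited ARID3B median distance was 54.4 kb. Distances from the start to the summit and the stricter overlap moved no value by over 1.5 times.

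No paired analysis was possible because each group had 1 library. Counting error alone can move peaks of 9 to 15 tags across the threshold, and in the deepest library a stretch of 250 bp at the mean background needed 4.86 times the mean tags, a figure that changes with the length of the stretch.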
